A study of Mus musculus with 4 samples.

Results

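The 9 genes described here make, bind, break down or respond to retinoic acid: *Rdh10*, *Aldh1a2*, *Aldh1a3*, *Cyp26b1*, *Crabp1*, *Crabp2*, *Rara*, *Rarb* and *Rarg*. They were chosen by symbol, as members of this pathway, and all 9 were found among 21352 genes in the deposited tables, in 14 transcript entries. RNA-seq had been done on palatal mesenchyme of 4 mouse embryos of mixed background at embryonic day 13.5, when the palatal shelves grow vertically beside the tongue. The controls were 1 *Osr2*RFP/+ embryo, with both copies of *Foxf2*, and 1 *Foxf2*+/-*Osr2*RFP/+ embryo, and the mutants were 2 *Foxf2*-/-*Osr2*RFP/+ embryos. All 4 were littermates and carried the *Osr2*RFP knock-in, which expresses red fluorescent protein from the *Osr2* locus, and a library was made for each embryo from its sorted RFP-positive cells. The *Foxf2* deletion was constitutive, so it was not limited to the palate. With 1 embryo for each control genotype, no spread can be given for either of them.

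Retinol, or vitamin A, is taken up by cells, oxidised to retinaldehyde and then to retinoic acid. Retinoic acid enters the nucleus and binds receptors that sit on DNA as partners of RXR proteins, and enzymes of the Cyp26 family clear it, so that the level a cell sees depends on synthesis and breakdown together. The developing palate is sensitive to this balance: excess retinoic acid given to pregnant mice is a classic cause of cleft palate, and mice lacking *Cyp26b1* also have a cleft palate.

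The deposited values were FPKM, fragments mapped per kilobase of transcript and scaled to the size of the library, which were summed over the entries of a gene and can be compared between genes. *Foxf2* checked the genotypes, at 85.4 FPKM in the *Osr2*RFP/+ embryo and 45.1 in the *Foxf2*+/- embryo, against 1.41 and 2.28 in the mutants. *Osr2*, which marks the sorted cells, was between 129 and 147 FPKM in the 4 embryos. The files held no read counts, so the depth in reads is unknown, but coverage per unit of FPKM was between 1.36 and 1.61, and the libraries differed in depth by at most 1.19 times. Markers of other cell types were low, with summed FPKM of 9.24 and 10.3 in the control embryos and 10.5 and 11.7 in the mutants for 11 epithelial genes, 0.417 and 0.608 against 0.893 and 1.5 for 7 endothelial genes, and 2.12 and 2.44 against 1.28 and 1.11 for 7 skeletal muscle genes. These sums did not overlap between the groups, as the values of 45.7% of all genes tested did not. Of the 5 epithelial genes past the filter, 4 overlapped between the groups and 3 had a log2 fold change below 0. The filter was passed by 0 endothelial genes and 1 muscle gene. Mutant means were lower for *Pecam1*, *Tek* and *Tie1*, and higher for *Cdh5*, *Kdr* and *Emcn*. Of the endothelial genes *Cldn5* was listed at 0 in every embryo, and the others reached at most 0.812 FPKM (*Emcn*, in a mutant). Of the muscle genes *Myog* was listed at 0 in every embryo, and *Tnnt1* was the highest, at 1.31 and 1.58 FPKM in the control embryos and 0.831 and 0.752 in the mutants. The 8 blood genes had high sums, of 172 and 1163 FPKM in the control embryos and 944 and 2498 in the mutants, which overlapped between the groups. Most of each sum came from *Hbb-y*. The 7 blood genes past the filter all had a log2 fold change above 0, as 29.7% of all genes tested had, with a median of 1.77. Of the 7, 5 overlapped between the groups. The other 2 were more than 1.5-fold above both controls, a difference that 1.4% of all genes had in either direction. Sums over 6 immune genes, between 14.5 and 22.4 FPKM, and over 6 nerve and glia genes, between 3.56 and 7.46, overlapped between the groups. The 6 genes of the anterior palate summed to 203 and 155 FPKM in the control embryos and 122 and 146 in the mutants. The gene of these with the highest control values was at 114 and 73.4 FPKM in the control embryos and 47.7 and 63.7 in the mutants. Of the 5 anterior genes past the filter, 3 overlapped between the groups, and 2 had a log2 fold change above 0. Sums over 4 genes of the posterior palate overlapped, at 295 and 269 FPKM in the control embryos and 265 and 305 in the mutants. The part of any of these in the results was not tested. In these bulk samples fewer cells of a type and less RNA per cell cannot be told apart.

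The receptor gene *Rarb* carries a well-known response element for its own ligand just before its start, and *Rara* is measured here from several starts, so the sequences before these starts are shown first. RefSeq promoter windows (GRCm38.p6), 250 bases before to 50 after a start, were given for 6 of the 9 genes, all but *Rdh10*, *Aldh1a3* and *Crabp2*, in 10 windows. Each window had 1 exact match in mm9, the build of the deposited tables, and coordinates are of mm9. Windows were searched on both strands for direct repeats of the retinoid receptor core motif, with 1, 2 or 5 bases between the copies. A copy was AGGTCA or the variant AGTTCA, and the forms that begin with another base, GGGTCA in place of the former and GGTTCA in place of the latter, were counted too. Of the 10 windows only that of *Rarb* held such a repeat. The last *Rara* window lay inside the gene, downstream of the start of its nearest entry, NM_001176528. The bases just before the start of that entry were thus not searched. The repeat in the *Rarb* window had the spacing of 5, which 32 of all 32851 windows held (0.0974%). Repeats with spacings of 1 and 2 were in 73 and 88 windows. The *Rarb* repeat runs from base 53 before the start to base 37 before it, at chr14:17408027-17408043, on the strand of the gene. Below are the 120 bases before the *Rarb* start (chr14:17407991-17408110, minus strand), with both copies in the repeat in capitals (a further single copy stands upstream in lower case), and the 60 bases before the upstream start (chr11:98798950-98799009, plus strand) and the middle start (chr11:98800965-98801024, plus strand) of *Rara*, neither of which holds a copy. A match describes the sequence and does not show binding.
*Rarb* start: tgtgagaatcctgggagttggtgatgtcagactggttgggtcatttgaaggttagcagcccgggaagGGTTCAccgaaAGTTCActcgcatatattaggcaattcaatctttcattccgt
*Rara* upstream start: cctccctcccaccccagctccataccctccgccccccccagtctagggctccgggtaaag
*Rara* middle start: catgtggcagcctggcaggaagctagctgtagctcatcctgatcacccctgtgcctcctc

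All 9 genes were detected in every embryo, over a wide range of levels. *Crabp1* had the highest level, followed by *Crabp2*, and their values did not overlap with each other or with any other member. *Cyp26b1*, *Aldh1a2* and *Rara* came next, and their ranges over the 4 embryos overlapped, so their order was not resolved. *Rarg*, *Rdh10*, *Rarb* and *Aldh1a3* followed in this order, without overlap between neighbours. In the controls *Crabp1* was higher than 98.9% of the 11154 genes tested, and *Rarb* was higher than 4.79%. The genes tested are only those with a mean of at least 1 FPKM over the 4 embryos, so genes below that level are not in this ranking. Read depth followed the level, with a mean coverage of the *Crabp1* transcript between 317 and 449 reads per base and of the *Aldh1a3* transcript between 0.331 and 1.23, so values of *Aldh1a3* rest on few reads.

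**Figure D1:**
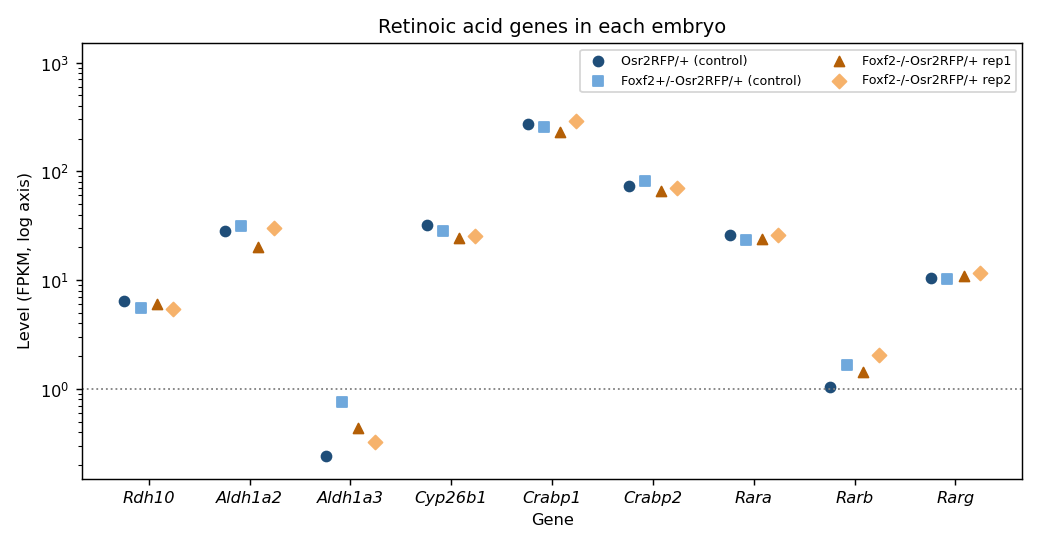
Level of each gene (horizontal axis) in FPKM on a log axis, with 1 point per embryo and a dotted line at 1 FPKM. *Crabp1* lies between 228 and 289 FPKM and *Aldh1a3* between 0.244 and 0.765, and the points of *Cyp26b1*, *Aldh1a2* and *Rara* overlap.

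The main comparison asked whether loss of *Foxf2* changed the level of these genes, with the 2 *Foxf2*-/- embryos set against the 2 controls. No member passed the test for a change. Of the 8 members with a mean of at least 1 FPKM over the 4 embryos, 0 were called by limma, which took an adjusted p under 0.05 together with over 1.5-fold, where 7 of all 11154 genes tested were (0.0628%). At an unadjusted p under 0.05 there was 1 member, *Cyp26b1*, beside 1452 of all genes (13%). None of the 8 members differed by more than 1.5-fold from both controls, as 156 of all genes did (1.4%). The 95% interval of the log2 fold change stayed within 1.5-fold (0.585 on the log2 scale) in either direction for 6 members, and reached beyond it for *Aldh1a2* and *Rarb*. These intervals cover the spread between these embryos only, and an exact permutation test of 2 embryos against 2 cannot give a p below 0.333.

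The values of all genes were slightly lower in the mutants, with a median log2 fold change of -0.081, which scaling by median ratios brought to -0.0015. Both *Foxf2*-/- embryos lay outside the range of the controls for 3 of the 8 members, below it for *Cyp26b1* and *Crabp2* and above it for *Rarg*. This was so for 45.7% of all genes, which were below in 35.8% and above in 9.89%, so the share of members was near that of all genes. After scaling by median ratios 21.6% of all genes lay below and 21% above, and *Cyp26b1* was then below, *Rara* and *Rarg* above, and *Crabp2* overlapped. With a common sum or with quantiles *Crabp2* stayed below both controls. Of the 8 members 2 were then below and 2 above, where 41.7% and 42.1% of all genes lay outside the range in either direction.

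**Figure D2:**
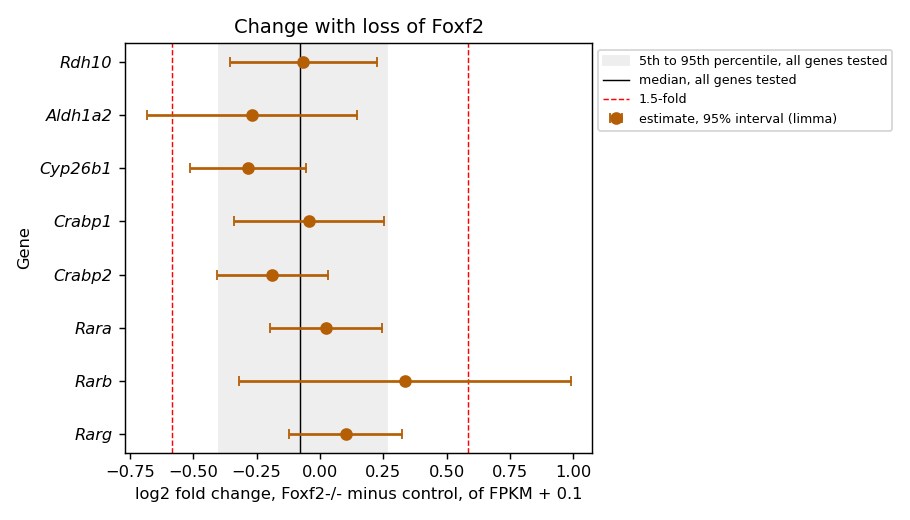
The log2 fold change of *Foxf2*-/- against control embryos (horizontal axis) for the 8 genes past the filter, with 95% intervals from limma, dashed lines at 1.5-fold, and the median and the 5th to 95th percentile of all genes tested. All 8 estimates lie between -0.28 and 0.33, and the intervals of *Aldh1a2* and *Rarb* are the widest.

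Synthesis begins with *Rdh10*, which encodes the dehydrogenase that turns retinol into retinaldehyde. *Rdh10* lies on chromosome 1 of mm9 from 16095963 to 16122631 on the plus strand and has 6 exons. Its level was 6.38 FPKM in the *Osr2*RFP/+ embryo and 5.53 in the *Foxf2*+/- embryo, against 5.98 and 5.37 in the mutants. The groups overlapped, and the log2 fold change of -0.067 (SE 0.124, limma adjusted p = 0.855) had a 95% interval from -0.36 to 0.22, and it was 0.012 after scaling by median ratios.

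*Aldh1a2* encodes the dehydrogenase that makes retinoic acid from retinaldehyde in much of the embryo, and it lies on chromosome 9 from 71063596 to 71144050, on the plus strand, with 14 exons. It was at 28.1 FPKM in the *Osr2*RFP/+ embryo and 31.7 in the *Foxf2*+/- embryo, and at 20.2 and 30.3 FPKM in the mutants. Only the first *Foxf2*-/- embryo was low, and the second lay between the controls. The log2 difference between the *Foxf2*-/- embryos, 0.58, was larger than that of 96.8% of all genes tested, irrespective of sign. Its estimated log2 fold change was -0.27 (SE 0.178, limma adjusted p = 0.559, 95% interval -0.68 to 0.15), and it became 0.020 without the first *Foxf2*-/- embryo and -0.56 (limma adjusted p = 0.198) without the second.

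*Aldh1a3* encodes a related enzyme with the same product, known from the eye and nasal region, and lies on chromosome 7 from 73535779 to 73572363 on the minus strand, with 13 exons. It was at 0.244 and 0.765 FPKM in the control embryos and 0.439 and 0.328 FPKM in the mutants. The groups overlapped. With a mean of 0.444 FPKM it did not reach the filter and was not tested. Of the enzymes that make retinoic acid, *Aldh1a2* was thus far above *Aldh1a3* in each embryo, since its lowest value was 20.2 FPKM and the highest of *Aldh1a3* was 0.765.

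Breakdown is the task of *Cyp26b1*, a cytochrome P450 enzyme that oxidises retinoic acid, encoded on chromosome 6 from 84521408 to 84543902 on the minus strand. It was at 32.4 FPKM in the *Osr2*RFP/+ embryo and 28.3 in the *Foxf2*+/- embryo, against 24.2 and 25.4 in the mutants. Both *Foxf2*-/- embryos were below both controls, and the *Foxf2*+/- embryo lay between the other genotypes, an order that 23.7% of all genes tested shared. The mean was 30.3 ± 2.85 FPKM in the control embryos and 24.8 ± 0.842 in the mutants (SD, n = 2 per group). Its log2 fold change of -0.28 (SE 0.0980, 95% interval -0.51 to -0.055) did not pass adjustment over all genes (limma adjusted p = 0.331, and between 0.194 and 0.844 over the alternatives tried). Of its 2 entries, NM_001177713 held nearly all of the summed FPKM, and NM_175475 held at most 5.04%.

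Set side by side within an embryo, the level of *Aldh1a2* was 0.869 times that of *Cyp26b1* in the *Osr2*RFP/+ embryo and 1.12 times in the *Foxf2*+/- embryo. The ratio was 0.835 and 1.19 in the mutants, so it spread more widely within each group than between the group means.

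The cellular retinoic acid binding proteins carry retinoic acid in the cytoplasm. *Crabp1*, a known marker of cranial neural crest cells, lies on chromosome 9 from 54612615 to 54620916 on the plus strand and has 4 exons. It was at 274 and 256 FPKM in the control embryos and at 228 and 289 FPKM in the mutants. The lowest and the highest value were both from *Foxf2*-/- embryos. Its fitted log2 fold change was -0.045 (SE 0.126, limma adjusted p = 0.912, 95% interval -0.34 to 0.25), and it turned positive, 0.036, after scaling by median ratios.

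*Crabp2*, whose protein hands retinoic acid to the receptors, lies on chromosome 3 from 87752615 to 87757294 on the plus strand and has 4 exons. It was at 73.5 and 81.3 FPKM in the control embryos and 65.3 and 70.4 FPKM in the mutants. Both *Foxf2*-/- embryos were below both controls. The log2 fold change of -0.19 (SE 0.0928, limma adjusted p = 0.447) had a 95% interval from -0.40 to 0.030. *Crabp1* exceeded *Crabp2* in every embryo, by 3.15 to 4.11 times.

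The 3 retinoic acid receptors are nuclear receptors that differ in where they are expressed. *Rara* made up 65.6% to 69.1% of their summed FPKM in the 4 embryos, *Rarg* 28.1% to 29.8% and *Rarb* 2.82% to 5.15%. *Rara* lies on chromosome 11 from 98799010 to 98836256 on the plus strand, and was at 25.8 and 23.4 FPKM in the control embryos and 24.1 and 25.9 FPKM in the mutants. The groups overlapped, with a log2 fold change of 0.023 (SE 0.0944, limma adjusted p = 0.938, 95% interval -0.20 to 0.24). Another annotated gene on the same strand overlaps *Rara*, and no annotated gene overlaps any other member.

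*Rarg* lies on chromosome 15 from 102065371 to 102087914 on the minus strand, and was at 10.5 and 10.3 FPKM in the control embryos and 10.8 and 11.6 FPKM in the mutants. Both *Foxf2*-/- embryos were above both controls. The difference was small, with a log2 fold change of 0.10 (SE 0.0955, limma adjusted p = 0.688, 95% interval -0.12 to 0.32), and it was 0.18 after scaling by median ratios. Of its 2 entries, the longer, NM_011244, held 77.1% and 77.3% of the FPKM in the control embryos and 72.0% and 80.4% in the mutants.

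*Rarb* is the receptor gene best known for being induced by retinoic acid itself. Its single entry, with 8 exons, lies on chromosome 14 from 17263354 to 17407724 on the minus strand, and starts 266 bases inside the start used for that window. It was at 1.05 FPKM in the *Osr2*RFP/+ embryo and 1.68 in the *Foxf2*+/- embryo, against 1.42 and 2.03 in the mutants. The *Foxf2*+/- embryo lay between the *Foxf2*-/- embryos, so the groups overlapped. The log2 fold change, 0.33 (SE 0.280, limma adjusted p = 0.649), had the widest interval of the members, from -0.32 to 0.99. Against the *Osr2*RFP/+ embryo alone it was 0.65, and against the *Foxf2*+/- embryo alone 0.021. The interval holds a difference of 1.5-fold upward. The mean coverage of *Rarb* was between 1.43 and 3.15 reads per base.

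*Rarb* had the largest absolute log2 fold change of the members tested with the pseudocount of 0.1 and all 4 embryos, though with a pseudocount of 1 it was 0.21, against -0.28 for *Cyp26b1* and -0.26 for *Aldh1a2*. The genes whose centred log2 values lay nearest to its own over the 4 embryos included *1700012B15Rik*, *Fkbp1b*, *BC064078* and *Hpse2*, at Euclidean distances from 0.058 to 0.125 on the log2 scale. With 4 embryos this is a description of shape only.

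*Rara* is annotated with 4 entries that share 2516 bases and differ mainly in where they start. NM_009024 and NM_001177302 begin 22 bases apart at the upstream start shown above, NM_001177303 begins 2015 bases further on at the middle start, and NM_001176528 begins 22775 bases downstream of the first. The middle-start entry was the main one in every embryo. It was at 21.2 and 20.0 FPKM in the control embryos and 18.9 and 16.8 FPKM in the mutants, or 82.2% and 85.1% of *Rara* against 78.7% and 64.9%.

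The entries of the upstream start had higher values in both mutants. NM_009024 was at 1.06 and 1.13 FPKM in the control embryos and 1.97 and 2.43 FPKM in the mutants. NM_001177302 was at 0.824 and 0.845 FPKM in the control embryos and 1.44 and 3.06 FPKM in the mutants. Together they held 7.30% and 8.40% of *Rara* in the control embryos and 14.2% and 21.2% in the mutants. Both mutants were thus above both controls for each of these entries, as for 11% of all entries tested, and below both for the middle-start entry, as for 32.8%.

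A fit over single entries was added after these values were seen, and tested 12723 entries. In it, the log2 fold change was 0.94 for NM_009024 (SE 0.250, limma adjusted p = 0.490, 95% interval 0.28 to 1.61) and 1.24 for NM_001177302 (SE 0.437, limma adjusted p = 0.503, 95% interval 0.079 to 2.40). For the middle-start entry it was -0.20 (SE 0.0976, limma adjusted p = 0.552). Both upstream entries were more than 1.5-fold above both controls, as 1.62% of all entries were, but limma called 0 entries in this fit, of which 1245 (9.79%) had an unadjusted p under 0.05. The upstream entries have 339 bases that are in neither of the other entries, and NM_009024 has only 22 bases of its own, so their FPKM is an estimate of how shared reads divide. The downstream-start entry was at 2.70 and 1.52 FPKM in the control embryos and 1.72 and 3.61 FPKM in the mutants, and the groups overlapped.

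**Figure D3:**
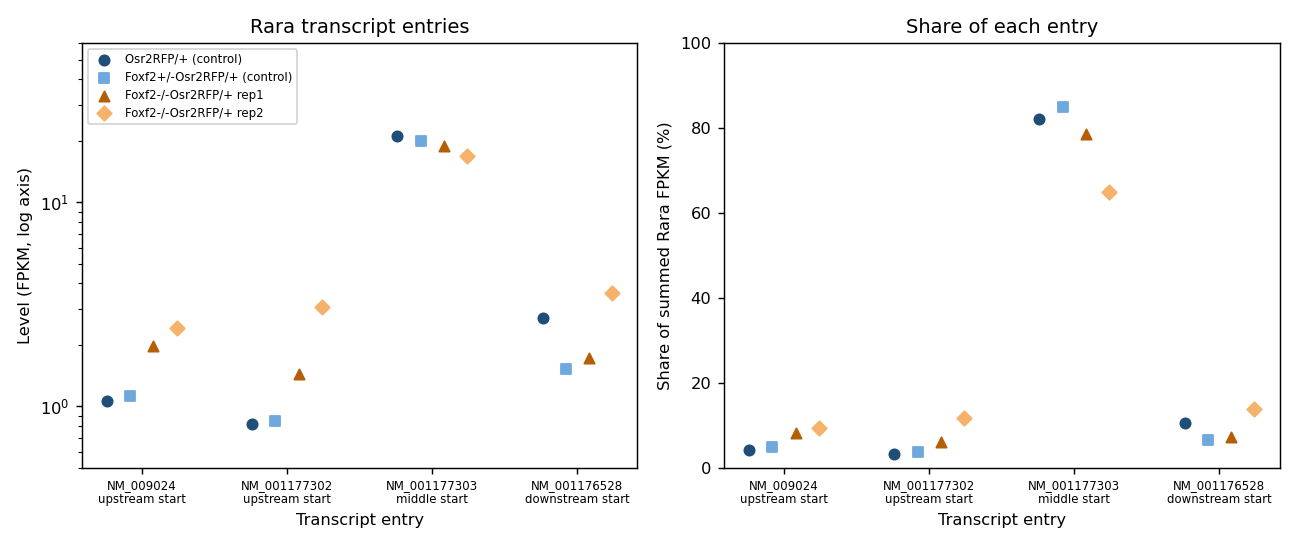
Level in FPKM on a log axis (left) and share of the summed *Rara* FPKM in percent (right) of the 4 *Rara* entries, with 1 point per embryo. In both upstream-start entries the *Foxf2*-/- points lie above the control points, and the middle-start entry holds between 64.9% and 85.1%.

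The rest of the pathway was described by 5 lists with 53 genes, of which 31 passed the filter. Of these, 0 were called by limma, 6 had an unadjusted p under 0.05, and 1 was more than 1.5-fold from both controls. The shares over all genes tested were 0.0628%, 13% and 1.4%. Both *Foxf2*-/- embryos were above both controls for 6 of the 31 genes and below for 8, beside 9.89% and 35.8% of all genes tested. After scaling by median ratios they were above for 11 and below for 6, beside 21% and 21.6% of all genes.

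Retinol handling and synthesis had 5 of 17 genes past the filter, and all 5 had a log2 fold change below 0, as 70.3% of all genes tested had, with a median of -0.27. After scaling by median ratios the median of the list was -0.19, and *Rdh11* turned positive, at 0.048. Both *Foxf2*-/- embryos were below both controls for 4 of the 5 genes without this scaling, beside 35.8% of all genes. This count was 4 also after scaling by median ratios, a common sum or quantiles, when 21.6%, 22.6% and 21.8% of all genes lay below. *Adh5*, a widely expressed alcohol dehydrogenase and the highest of the list, was at 44.5 and 41.7 FPKM in the control embryos and 35.7 and 35.4 FPKM in the mutants. Its log2 fold change was -0.27 (SE 0.0843, limma adjusted p = 0.299).

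Of the other genes of this list below both controls, *Dhrs3* and *Stra6* were chosen for naming after their values were seen. *Dhrs3*, whose enzyme turns retinaldehyde back into retinol, was at 10.4 and 8.52 FPKM in the control embryos and 5.91 and 7.58 FPKM in the mutants, with a log2 fold change of -0.48 (SE 0.153, limma adjusted p = 0.303). *Stra6*, the membrane receptor for retinol uptake, was at 19.0 and 16.5 FPKM in the control embryos and 12.9 and 16.3 FPKM in the mutants, and its log2 fold change was -0.29 (limma adjusted p = 0.420). Neither passed the test.

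Breakdown and binding had 3 of 4 genes past the filter, with a median log2 fold change of -0.17, which was -0.092 after scaling by median ratios. *Fabp5*, which also binds retinoic acid, was the highest of them, at 25.4 and 26.5 FPKM in the control embryos and 29.2 and 29.5 FPKM in the mutants (log2 fold change 0.18, limma adjusted p = 0.432). *Cyp26a1*, a relative of *Cyp26b1*, was lower than it in every embryo, between 1.36 and 3.25 FPKM.

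The list of partner receptors, which held the *Rxr* genes and *Ppard*, had 3 of 4 genes past the filter. The median log2 fold change of these 3 genes was 0.027, which was 0.106 after scaling by median ratios, and was in both cases the value of *Ppard*. *Rxra* was the highest of them, between 15.9 and 18.5 FPKM, with overlapping groups. *Rxrg* did not exceed 0.0667 FPKM. The 10 coregulators, some of which open or close chromatin at the receptors, all passed the filter. They had a median log2 fold change of -0.0094, which was 0.071 after scaling by median ratios, 0.061 with a common sum and 0.068 with quantiles. *Crebbp*, a histone acetyltransferase and the highest of them, was at 52.1 and 50.3 FPKM in the control embryos and 54.8 and 55.5 FPKM in the mutants (log2 fold change 0.11, limma adjusted p = 0.608).

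Genes known to respond to retinoic acid had 10 of 18 past the filter, 5 with a log2 fold change above 0 and 5 below, and a median of 0.11. After scaling by median ratios the median was 0.195, and some of the genes below 0 turned positive. *Nr2f2*, an orphan nuclear receptor of the COUP-TF family, was the only one of the 31 list genes past the filter that was more than 1.5-fold from both controls. It was at 3.97 and 4.63 FPKM in the control embryos and 6.89 and 7.56 FPKM in the mutants. Its log2 fold change of 0.74 (SE 0.125, 95% interval 0.45 to 1.03) did not pass adjustment (limma adjusted p = 0.123). *Stra8*, which retinoic acid induces in germ cells, was listed at 0 in every embryo.

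**Figure D4:**
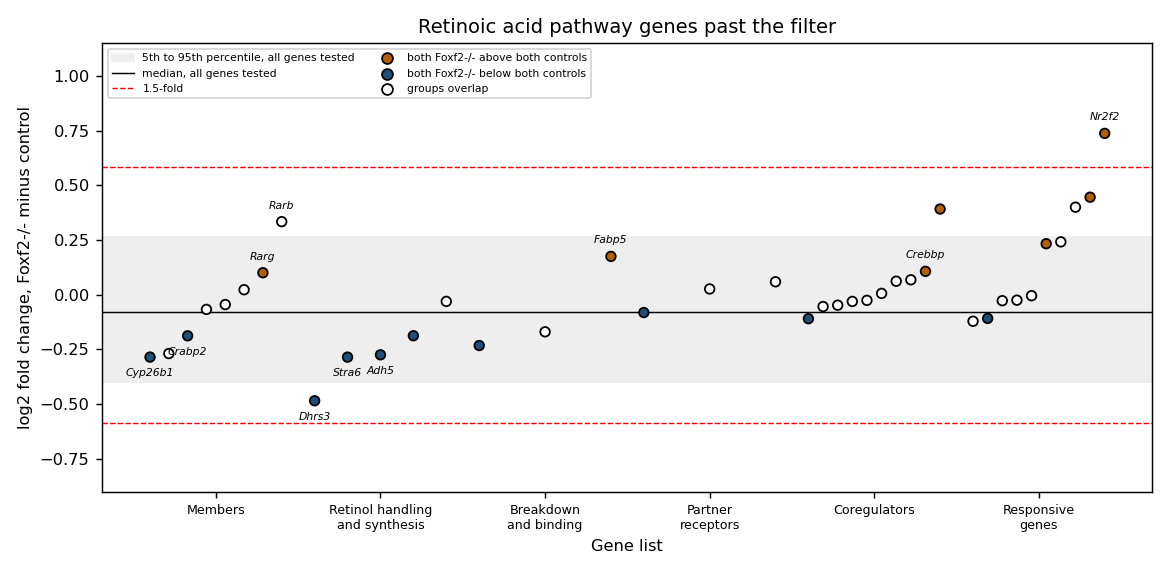
The log2 fold change of *Foxf2*-/- against control embryos (vertical axis) for the 8 members and the 31 other pathway genes past the filter, by list, with filled points where the groups do not overlap and dashed lines at 1.5-fold. *Nr2f2*, at 0.74, is the only point beyond the dashed lines, and *Dhrs3*, at -0.48, is the lowest.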

How the data were processed

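Single-end reads had been aligned to mm9 by the authors, who used Tophat with Bowtie (0.12.7, per the submitters' processing notes) and deposited 1 table per embryo with FPKM and coverage for 28107 RefSeq entries. The version of the program that made the FPKM is not given in the sources used here. The deposited coverage is the mean read depth over a transcript and was used as depth only. Entries of at least 200 bases were summed by gene, and 10 genes with a failed estimate were left out. Locus starts were counted from 0 in the tables and are given from 1. A linear model with a variance trend (limma 3.58.1, R 4.3.3) was fitted to log2(FPKM + 0.1), which understates changes of low genes, over genes with a mean of at least 1 FPKM, with Benjamini-Hochberg adjustment over all genes. The library kit does not mark strand. Exons came from the GENCODE annotation of mm9. The script was tested on simulated data. Some list genes are not reported here. Every member was named. Of the pathway lists, the highest gene and those with no overlap and more than 1.5-fold were named, except genes not reported here. Any other list gene was named after its values were seen. This rule was not applied to the cell type and palate region lists, in which unnamed genes also met it. Tables were read in Python 3.11.15 with pandas 2.3.3. The members, lists and settings were chosen with earlier results of these data known.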

Additional observations from a re-analysis of the deposited data

How the results depend on the processing

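Under 16 alternatives, limma called 0 members in every fit, with an adjusted p for a single member of at least 0.194, and 113 of the 127 member estimates kept their sign. The log2 fold change of *Rdh10* became 0.012 with median ratios, 0.0026 with a common sum and 0.0079 with quantile normalization, that of *Crabp1* became 0.036 and 0.026 with the first and second of these, and that of *Rara* became -0.20 with the highest entry in place of the sum and -0.024 with *Foxf2* null alleles as a linear term. As each embryo was left out, *Rdh10* ranged from -0.17 to 0.035, *Aldh1a2* from -0.56 to 0.020, *Crabp1* from -0.22 to 0.13 and *Rara* from -0.044 to 0.091, while *Cyp26b1* (-0.38 to -0.19), *Crabp2* (-0.26 to -0.11), *Rarb* (0.021 to 0.65) and *Rarg* (0.053 to 0.15) kept their sign. Members past 1.5-fold against both controls then ranged from 0 to 1, which was *Rarb* without the *Foxf2*+/- embryo, and members without overlap from 5 to 7. Over all genes, limma called 13 with a pseudocount of 1, 0 without a filter, 19 with a common sum, 12 with quantile normalization, 27 with entries of any length, 1 with the highest entry, 0 without a variance trend, 20 with a mean for each genotype, 15 with null alleles as a linear term, 0 over single entries (added later), and 7 to 33 with an embryo left out. Genes past 1.5-fold against both controls numbered 67 with a pseudocount of 1, 49 with a filter of 5 FPKM, 639 without a filter, 291 with entries of any length, 614 over single entries, and 219 to 571 with an embryo left out, and genes without overlap then numbered 7583 to 8502. The *Foxf2*-/- embryos were above both controls for 19.2% and below for 22.6% of genes with a common sum, and for 20.4% and 21.8% with quantile normalization. The causes were not tested. Fits with 1 embryo in a group assume that it varies like the others. No paired analysis was possible because the controls carry no replicate numbers. *Aldh1a3* was below the filter.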
